A study of Mus musculus with 8 samples.

Results

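Imprinted genes are genes that mammals express mainly from the copy inherited from one parent. Methylation laid down in the egg or the sperm at control regions marks the copy to be silenced or used, and the mark is kept in the embryo by a zinc finger protein, ZFP57, with its partner TRIM28 and the maintenance methyltransferase DNMT1. Many lie in domains where neighbours are used from opposite copies, and as a group they are best known for setting the growth of the embryo and the placenta: paternally expressed members such as Igf2 tend to promote it and maternally expressed members such as Cdkn1c and Grb10 to restrain it. The 38 genes described here are known imprinted mouse genes, taken by symbol from a table of 24421 genes. All 38 were found. There were 22 that mouse genetics places on the paternal copy, 14 on the maternal copy, and Grb10 and Gnas, whose expressed copy depends on tissue or transcript.

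Messenger RNA was sequenced from Hira-null mouse embryonic stem cells (mESCs; a single clone, Clone104) and from wild-type mESCs (WT; line W9.5), both carrying HA-tagged histone H3.3. HIRA belongs to a chaperone complex that places H3.3 into chromatin outside DNA replication. H3.3 is also placed at certain sites without HIRA, through ATRX and DAXX. Each line was sequenced undifferentiated at day 0 and after 15 days of a hanging drop protocol meant to yield cardiomyocytes, with 2 libraries, which the study describes as biological replicates, in each of the 4 groups, 8 in all. Effects of the clone and of the lost gene cannot be told apart, and the reads were not assigned to a parental copy, so a level below is the sum of both copies. Values are FPKM, fragments per kilobase of transcript scaled to library size, which allows levels to be compared between genes.

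The libraries held between 6908054 and 11095730 counted fragments. Hira itself read 12.4 and 11.4 FPKM in Hira-null at day 0, against 27.3 and 28.5 FPKM in WT (log2 fold change −1.17, adjusted p = 8.48e-05). At day 15 Hira read 16.7 and 19.8 FPKM in the libraries labelled Hira-null, against 15.8 and 15.5 FPKM in WT, so the Hira level was not lower under the Hira-null label (0.20, adjusted p = 0.167, and 0.0497 to 0.566 over 19 alternative settings, the lowest without Hira-null day 15 replicate 1). Directions at day 15 are given for the libraries labelled Hira-null. By the test described below, 7 of the 35 imprinted genes tested were lower at both days, H19, Plagl1 and Mest among them. Higher at both were 6, Grb10 among them. Zdbf2 went in opposite directions, 15 passed at one day only and 6 at neither. Over all genes 6.51% were lower at both days, 5.53% higher and 5.15% opposite. The labels themselves were not tested. The day 15 cultures held cardiomyocyte genes. The 11 markers summed to between 175 and 179.9 FPKM in the libraries labelled Hira-null and between 256 and 259 FPKM in WT. The set was mixed, with 5 markers lower under the Hira-null label, 2 higher, and 4 that passed in neither direction. Myl7 read 12.4 and 11.9 FPKM in the libraries labelled Hira-null, against 68.9 and 64.9 FPKM in WT. Tnnt2 ran the other way, at 57.8 and 59.7 FPKM against 38.9 and 41.0 FPKM in WT. The cultures also held genes of other cell types, given with the day 15 results.

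Promoters of the members are shown because control regions are rich in CpG, the pair of bases that DNA methylation acts on. RefSeq promoters on GRCm38.p6, each running from 250 bases before the transcript start to 50 after it, were at hand for 31 of the 38 members, 50 promoters in all. The median member promoter held 12 CpG, against 7 over 32851 promoters of 27025 genes, and 22 of the 50 (44.0%) held 15 or more, against 34.6% of all promoters. TGCCGC, the hexamer that ZFP57 recognises, was searched on both strands. It occurred in 10 of the 50 member promoters (20%), against 11.6% of all promoters, and a match is a description of the letters only. The 10 include the Mest windows starting at 30737800 and 30737803, which overlap almost wholly. Matches lay in promoters of Zdbf2, Mest, Nnat, Zim1, Snrpn, Igf2, Plagl1, Grb10 and Meg3. Among these are genes called in opposite directions, at one day only or not tested, and nothing about direction is read from a match. The promoters of Plagl1, Mest and Nnat, which were lower at both days, and of Grb10, which was higher at both, are printed 5′ to 3′ with every CpG in capitals, and the positions are those of GRCm38.p6. Of several promoters of a gene, the one with most TGCCGC matches is printed, so a match in each is no result. Phlda2, Cd81 and Mkrn3, also higher at both days, had no match and are not printed.

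Plagl1, chr10:13090582-13090881, plus strand, 26 CpG: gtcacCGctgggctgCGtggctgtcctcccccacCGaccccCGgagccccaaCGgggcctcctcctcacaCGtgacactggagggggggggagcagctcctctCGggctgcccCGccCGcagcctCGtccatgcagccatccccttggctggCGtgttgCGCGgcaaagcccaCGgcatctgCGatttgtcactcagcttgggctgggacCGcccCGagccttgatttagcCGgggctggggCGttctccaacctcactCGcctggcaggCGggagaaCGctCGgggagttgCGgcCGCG
Mest, chr6:30737800-30738099, plus strand, 17 CpG: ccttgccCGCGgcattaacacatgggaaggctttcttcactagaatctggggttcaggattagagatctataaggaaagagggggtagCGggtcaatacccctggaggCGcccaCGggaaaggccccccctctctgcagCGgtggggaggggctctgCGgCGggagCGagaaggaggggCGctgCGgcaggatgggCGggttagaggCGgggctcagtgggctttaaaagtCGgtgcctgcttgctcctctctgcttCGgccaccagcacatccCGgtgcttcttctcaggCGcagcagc
Nnat, chr2:157559828-157560127, plus strand, 17 CpG: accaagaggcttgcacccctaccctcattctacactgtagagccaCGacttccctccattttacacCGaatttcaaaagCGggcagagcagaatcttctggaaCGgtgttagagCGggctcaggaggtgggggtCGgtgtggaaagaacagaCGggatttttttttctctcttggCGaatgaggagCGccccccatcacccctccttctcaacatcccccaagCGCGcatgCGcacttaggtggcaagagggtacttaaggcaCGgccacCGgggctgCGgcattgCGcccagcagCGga
Grb10, chr11:12037371-12037670, minus strand, 45 CpG: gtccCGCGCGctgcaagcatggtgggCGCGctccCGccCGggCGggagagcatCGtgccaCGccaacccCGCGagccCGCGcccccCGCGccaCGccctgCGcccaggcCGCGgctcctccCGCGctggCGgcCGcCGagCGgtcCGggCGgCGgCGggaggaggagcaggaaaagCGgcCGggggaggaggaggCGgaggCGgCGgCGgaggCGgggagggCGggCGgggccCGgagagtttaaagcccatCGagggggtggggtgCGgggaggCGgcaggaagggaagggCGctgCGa

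H19 and Igf2 each carry a microRNA within the gene, printed from RefSeq with the seed (bases 2 to 8) in capitals. The seeds of the 4 arms all differ. Mir675 and Mir483 were listed at 0 FPKM in all 8 libraries, which were made from poly(A) RNA and measure small RNAs poorly, so the levels of the hosts below say nothing of the mature forms.

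miR-675-5p, from H19: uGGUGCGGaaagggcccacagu
miR-675-3p, from H19: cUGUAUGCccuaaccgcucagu
miR-483-5p, from Igf2: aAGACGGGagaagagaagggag
miR-483-3p, from Igf2: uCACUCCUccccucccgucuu

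Whether imprinted genes differed between the genotypes was asked at each day with limma on log2(FPKM + 1), keeping 14337 genes that reached FPKM 1 in 2 or more libraries. Adjusted p values were corrected by Benjamini-Hochberg across all of them, and a call is an adjusted p of 0.05 or less. Adding 1 makes the fold changes of weakly expressed genes too small. Of the 38 members 35 were tested, 7 of them because they reached the level at one day only, and none through one genotype only. Rtl1, Snrpn and Rasgrf1 were too low, at 0 to 0.802 FPKM in every library.

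In undifferentiated cells, 8 members were higher and 12 lower in Hira-null, and 15 did not pass the test. Over all genes 20.8% were called higher and 19.4% lower. With a fold of 2 or more on the same scale, 2 members were higher and 6 lower (4.63% and 2.59% of all genes). The median log2 difference was −0.15 over the 35 members and 0.01 over all genes. Among the 19 tested members of the paternal copy 2 were higher and 10 lower, and among the 14 of the maternal copy 5 were higher and 2 lower. Of those 5, Cdkn1c, Phlda2, Slc22a18 and Cd81 lie in a single domain, that of Kcnq1ot1, and neighbours are counted singly.

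At day 15, 9 members were higher and 14 lower in the libraries labelled Hira-null, and 12 did not pass (18.6% of all genes were called higher and 18.8% lower). At 2-fold or more, 3 were higher and 7 lower (4.78% and 4.08% of all genes). Medians were −0.18 over the members and 0.01 over all genes. Over the 28 members that reached FPKM 1 at both days the count was 9 higher and 11 lower and the median was 0.01, so the sign of the median rests on the others. Of the members of the paternal copy 4 were higher and 9 lower, and of those of the maternal copy 3 were higher and 5 lower. Those 3 were Cdkn1c, Phlda2 and Cd81, all of the Kcnq1ot1 domain. These counts moved with single libraries: without WT day 15 replicate 1 or replicate 2 fewer members were called higher, and fewer of all genes too.

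The same member was often called at both days. Lower at both were 7 members (H19, Peg10, Sgce, Mest, Plagl1, Impact and Nnat; 6.51% of all genes), 6 higher at both (Igf2, Cdkn1c, Phlda2, Cd81, Mkrn3 and Grb10; 5.53% of all genes) and 1, Zdbf2, called in opposite directions (5.15% of all genes). The same direction at both days was thus seen for 37.1% of the members tested and for 12% of all genes. The 2 comparisons use different libraries of the same 2 lines.

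Other cell types differed between the day 15 cultures. Visceral endoderm and yolk sac markers were lower for 8 of 10 genes and higher for 1, summing to between 30.5 and 31.5 FPKM in the libraries labelled Hira-null and between 149.7 and 156 FPKM in WT, with Apoa2 listed at 0 in both day 15 libraries labelled Hira-null. Mesenchyme and fibroblast markers were lower for 8 of 10 (716 to 907 FPKM in the libraries labelled Hira-null, against 2083 to 2316 FPKM in WT), and neural markers higher for 8 of 10 (637 to 656 FPKM in the libraries labelled Hira-null, against 267 to 271 FPKM in WT). Endothelial markers were lower for 6 of 8 (16.4 to 17.1 FPKM in the libraries labelled Hira-null, against 43.4 to 44.4 FPKM in WT). Pluripotency markers were higher for 2 of 8 and lower for 5, and their sums overlapped. These were 282 to 296 FPKM in the libraries labelled Hira-null, against 276 to 299 FPKM in WT. Trophoblast markers were lower for 3 of the 4 tested at day 15 (5.16 to 7.09 FPKM in the libraries labelled Hira-null, against 26.5 FPKM in each WT library), and skeletal muscle markers for 3 of 4 (9.23 to 9.28 FPKM in the libraries labelled Hira-null, against 16.5 to 18.4 FPKM in WT). The day 15 trophoblast sum in WT was mostly Hand1, at 17.8 and 17.6 FPKM, against 2.13 and 2.77 FPKM in the libraries labelled Hira-null. Prl3d1 and Prl2c2 were at 0 in every day 15 library. At day 0, 2 of 4 trophoblast markers were lower and 1 higher. Their sum, 8.62 to 9.87 FPKM in Hira-null against 28.1 to 29.8 FPKM in WT, was mostly Hand1, at 4.07 and 4.26 FPKM in Hira-null and 21.04 and 22.6 FPKM in WT. Eomes was the one higher, and Prl3d1, Prl2c2 and Tpbpa were at 0 in every day 0 library. The part of these markers in the differences below was not tested. In bulk cultures fewer cells of a type and less RNA per cell cannot be told apart.

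**Figure D1:**
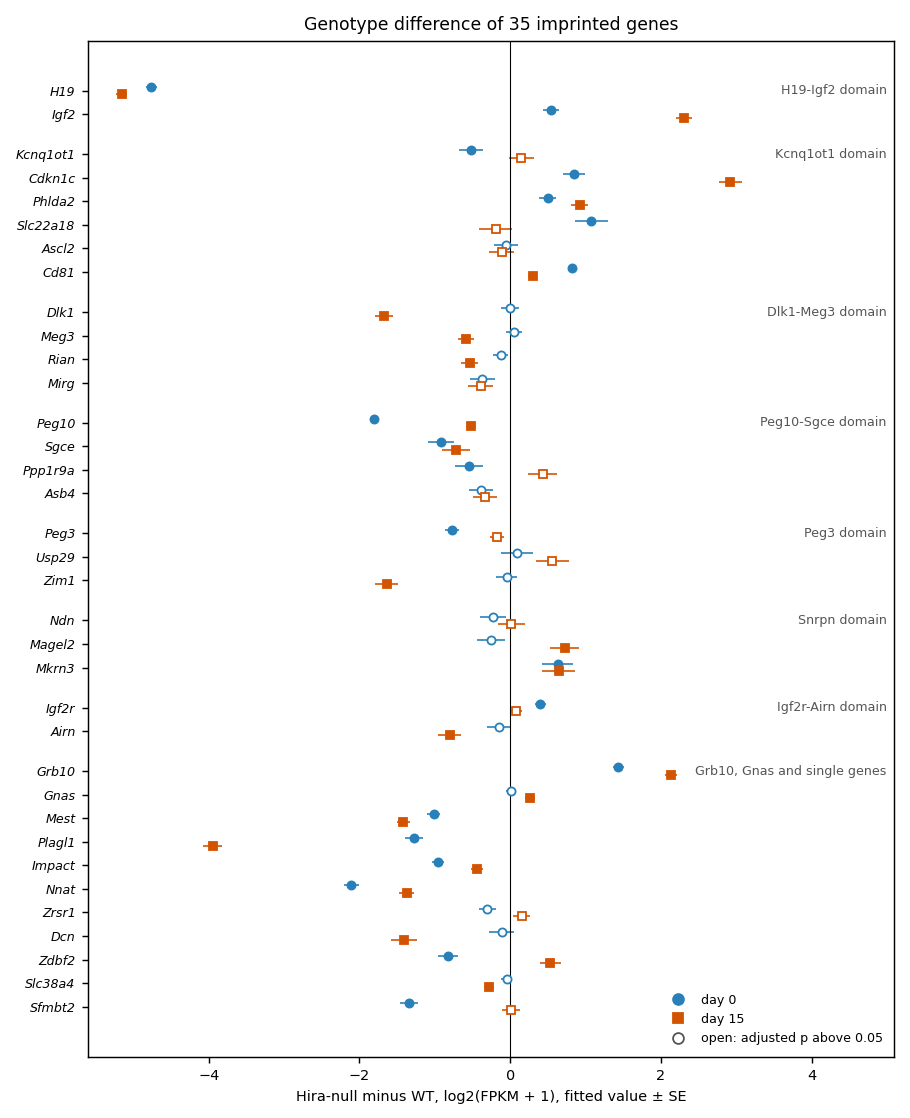
Difference between Hira-null and WT on the log2(FPKM + 1) scale (horizontal axis, fitted value with standard error) for the 35 members tested, grouped by domain, at day 0 (circles) and day 15 (squares). Filled points passed the test, open points did not, and H19 stands farthest to the left at both days (−4.76 and −5.15).

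H19 and Igf2 share enhancers on chromosome 7 and are used from opposite copies. H19, a maternally expressed noncoding RNA abundant in embryonic tissue (149761434 to 149764048 on mm9, minus strand), read 20.3 and 20.8 FPKM in Hira-null at day 0, against 580 and 589 FPKM in WT. At day 15 H19 read 101 and 117 FPKM in the libraries labelled Hira-null, against 3890 and 3941 FPKM in WT. Every WT library of a day lay far above both others. The ratio of means was 28.4-fold lower at day 0 (log2 difference −4.76, SE 0.07, adjusted p = 7.05e-09) and 35.8-fold lower at day 15 (−5.15, SE 0.07, adjusted p = 4.69e-09). It had the lowest log2 difference of all 14337 genes at day 0.

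Igf2, the paternally expressed fetal growth factor (149836673 to 149852721, minus strand), ran the other way. At day 0 it read 15.2 and 18.9 FPKM in Hira-null, against 10.5 and 12.2 FPKM in WT (0.55, SE 0.11, adjusted p = 0.00368). This call was lost with the day 0 libraries fitted alone (adjusted p = 0.0695, the highest of 19 alternatives, which began at 0.00159). At day 15 the groups lay much farther apart, with 819.6 and 804 FPKM in the libraries labelled Hira-null, against 164 and 162 FPKM in WT (2.31, SE 0.11, adjusted p = 7.68e-06). The genotype difference of Igf2 was larger at day 15 than at day 0 by 1.76 (SE 0.15, adjusted p = 1.63e-04). Igf2as, on the other strand, shares exons with Igf2, and the sources used here do not give whether the counting separated strands.

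Within a library the balance of the pair was turned round. H19 over Igf2 was 1.33 and 1.10 in Hira-null at day 0, against 55.3 and 48.2 in WT. At day 15 this ratio was 0.123 and 0.146 in the libraries labelled Hira-null, against 23.7 and 24.4 in WT. In WT, H19 was thus the more abundant transcript at both days, while the libraries labelled Hira-null held more Igf2 than H19 at day 15.

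**Figure D2:**
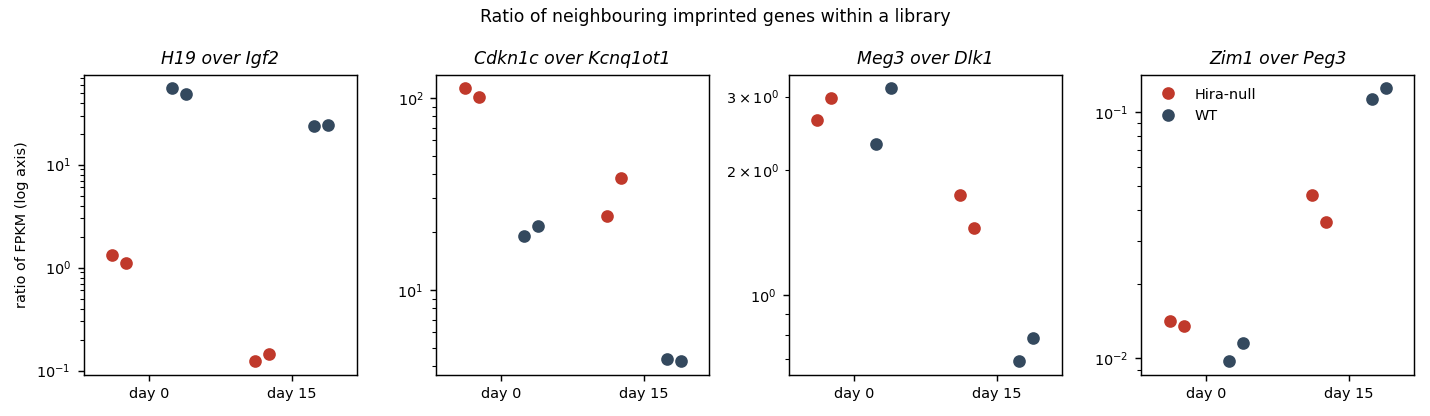
Ratio of FPKM between members of the same domain in each of the 8 libraries (points, log axis), by day, with Hira-null left of WT. H19 over Igf2 lies at 0.123 and 0.146 in the day 15 libraries labelled Hira-null and at 23.7 and 24.4 in WT, and Meg3 over Dlk1 overlaps at day 0 only.

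The Kcnq1ot1 domain, next along chromosome 7, holds maternally expressed growth restraining genes that the paternally expressed noncoding RNA Kcnq1ot1 silences in cis. Kcnq1ot1 read 0.312 and 0.291 FPKM in Hira-null at day 0, against 0.791 and 0.931 FPKM in WT (−0.52, SE 0.16, adjusted p = 0.0297). The call was lost without WT day 0 replicate 2, without either day 0 Hira-null library, and at a pseudocount of 5 (adjusted p 0.0085 to 0.118 over 19 alternatives). At day 15 Kcnq1ot1 overlapped, at 4.54 and 3.57 FPKM in the libraries labelled Hira-null, against 3.44 and 3.64 FPKM in WT (adjusted p = 0.508).

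Cdkn1c encodes p57, an inhibitor of cyclin-dependent kinases, and lies at 150644255 to 150646955 on the minus strand. At day 0 it read 35.1 and 29.5 FPKM in Hira-null, against 15.1 and 20.1 FPKM in WT (0.85, SE 0.15, adjusted p = 0.00239). At day 15 Cdkn1c read 109 and 137 FPKM in the libraries labelled Hira-null, against 15.1 and 15.5 FPKM in WT. The groups did not overlap at either day, and the day 15 difference, 8.07-fold in means (2.92, SE 0.15, adjusted p = 1.17e-05), exceeded that at day 0 by 2.08 (SE 0.22, adjusted p = 3.63e-04). Cdkn1c over Kcnq1ot1 was 112 and 101 in Hira-null at day 0, against 19.1 and 21.5 in WT. At day 15 this ratio was 24.1 and 38.3 in the libraries labelled Hira-null, against 4.38 and 4.25 in WT.

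Slc22a18, a membrane transporter gene at 150659626 to 150685239 on the plus strand, was expressed at day 0 only. It read 5.19 and 6.16 FPKM in Hira-null, against 2.92 and 1.53 FPKM in WT (1.08, SE 0.22, adjusted p = 0.00445, and 0.0015 to 0.0598 over 19 alternatives, lost with the day 0 libraries alone). At day 15 Slc22a18 was listed at 0 in each library labelled Hira-null, where 3 fragments would read up to 0.207 FPKM, and at 0.13 and 0.157 FPKM in WT. No fold is given there. The fitted difference between the days (−1.27, SE 0.31, adjusted p = 0.0138) was lost without either WT day 15 library and with quantile normalization (0.00422 to 0.0666 over 18 alternatives).

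Phlda2, a restrainer of placental growth, was higher at both days. It read 74.1 and 74.9 FPKM in Hira-null at day 0, against 53.3 and 51.7 FPKM in WT (0.50, adjusted p = 0.00665, and 0.000975 to 0.0542 over 19 alternatives, lost without either Hira-null day 0 library). At day 15 Phlda2 read 4.72 and 4.70 FPKM in the libraries labelled Hira-null, against 1.73 and 2.32 FPKM in WT (0.93, adjusted p = 4.13e-04). Cd81, a tetraspanin gene that shares exons with R74862 on the other strand, was higher by 0.82 at day 0 (adjusted p = 3.60e-05) and by 0.30 at day 15 (adjusted p = 0.00563, and 0.00369 to 0.056 over 19 alternatives, lost without WT day 15 replicate 2). Ascl2, a transcription factor of the trophoblast, read 12.2 to 13.7 FPKM in the 4 day 0 libraries and below 0.5 FPKM at day 15, and passed neither test.

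**Figure D3:**
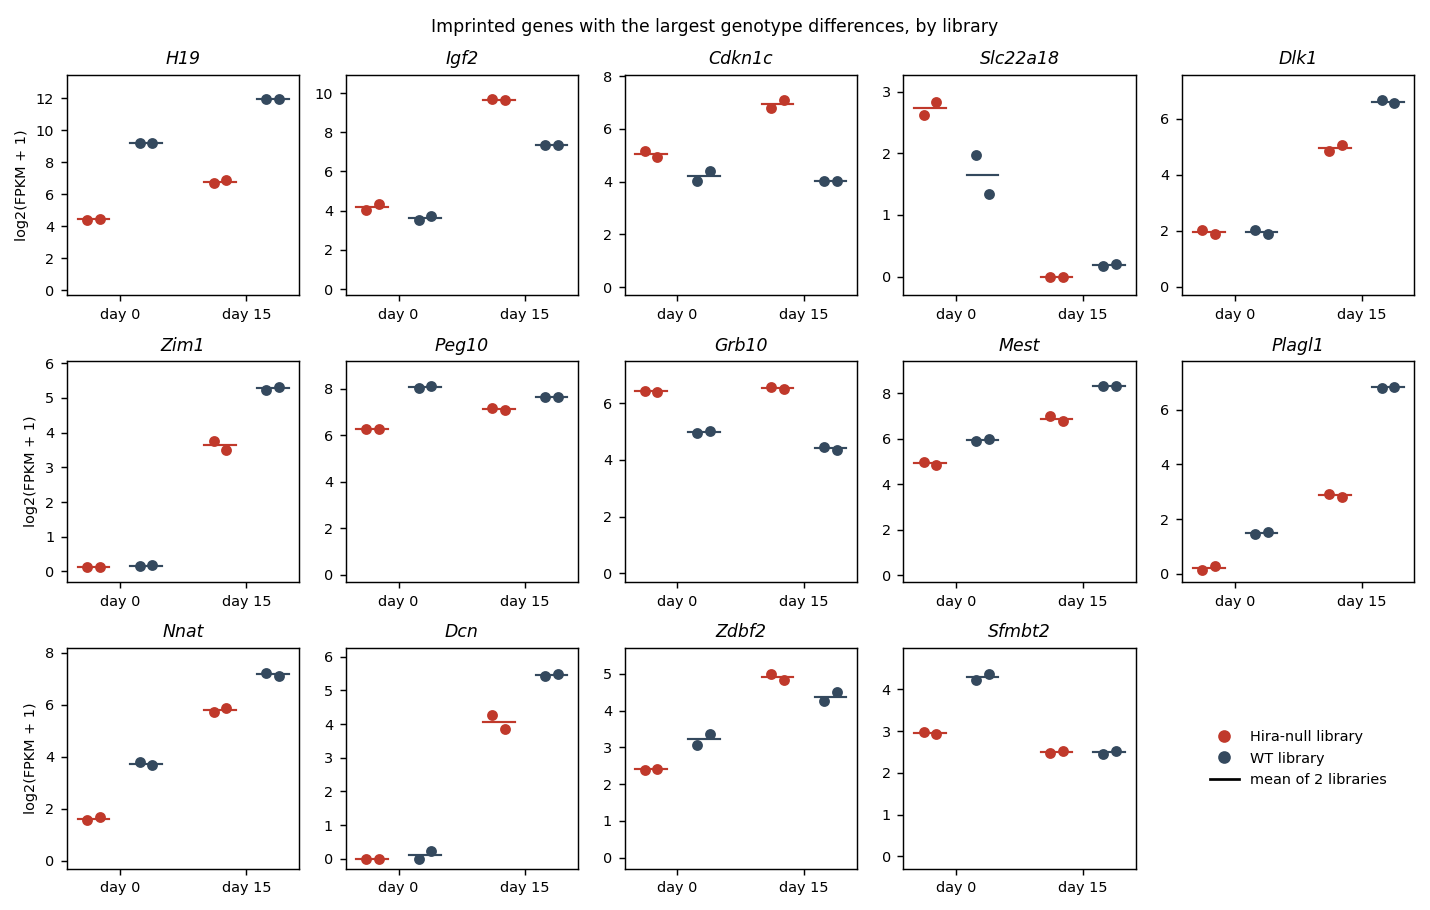
log2(FPKM + 1) of the 14 members with a called fold of 2 or more in a genotype comparison, or a called difference of 1 or more between the days (vertical axes), in each library (points) with the mean of the 2 libraries (lines), Hira-null left of WT within each day. Plagl1 and H19 are lower in Hira-null at both days, Grb10, Igf2 and Cdkn1c higher at both, and Sfmbt2 differs at day 0 only.

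The Dlk1-Meg3 domain on chromosome 12 pairs the paternally expressed Dlk1, a Notch-related membrane protein of fetal progenitors, with the maternally expressed noncoding RNAs Meg3, Rian and Mirg. None of its 4 tested members passed the test at day 0. Dlk1 (110691033 to 110701546, plus strand) read 3.09 and 2.65 FPKM in Hira-null, against 3.02 and 2.71 FPKM in WT. At day 15 Dlk1 read 27.5 and 31.9 FPKM in the libraries labelled Hira-null, against 101 and 92.3 FPKM in WT. The day 15 groups did not overlap (3.25-fold lower in means, −1.67, SE 0.12, adjusted p = 4.92e-05), and the difference between the days was −1.67 (SE 0.17, adjusted p = 2.99e-04).

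The noncoding RNAs of the domain had smaller fitted differences than Dlk1 at day 15. Meg3 read 48.0 and 46.2 FPKM in the libraries labelled Hira-null, against 69.98 and 72.7 FPKM in WT (−0.59, SE 0.10, adjusted p = 0.00267). Rian read 93.2 and 86.6 FPKM in the libraries labelled Hira-null, against 125 and 137 FPKM in WT (−0.54, SE 0.11, adjusted p = 0.00518). Both calls were lost without WT day 15 replicate 2, with adjusted p = 0.0503 for Meg3 (0.00125 to 0.0503 over 19 alternatives) and 0.0841 for Rian (0.00283 to 0.0841). Mirg, at 16.1 and 15.6 FPKM in the libraries labelled Hira-null, against 19.7 and 22.6 FPKM in WT, did not pass (adjusted p = 0.0969). Meg3 over Dlk1 was 1.74 and 1.45 in the day 15 libraries labelled Hira-null, against 0.693 and 0.788 in WT. These 3 RNAs host or overlap small RNA genes on the same strand.

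On chromosome 6 the paternally expressed Peg10 and Sgce share a control region. Peg10 derives from a retrotransposon and is needed for the placenta in the mouse (4697306 to 4710514, plus strand). It read 76.2 and 75.5 FPKM in Hira-null at day 0, against 261 and 275 FPKM in WT, 3.53-fold lower in means (−1.80, SE 0.06, adjusted p = 1.15e-06). At day 15 Peg10 read 144 and 135 FPKM in the libraries labelled Hira-null, against 199.3 and 199.1 FPKM in WT (−0.51, SE 0.06, adjusted p = 4.63e-04). The gap was narrower at day 15 by 1.29 (SE 0.09, adjusted p = 7.74e-05).

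Sgce encodes epsilon-sarcoglycan. It read 3.65 and 4.19 FPKM in Hira-null at day 0, against 10.3 and 6.63 FPKM in WT (−0.92, SE 0.18, adjusted p = 0.00355, and 0.000761 to 0.0655 over 19 alternatives, lost with the day 0 libraries alone). At day 15 Sgce read 11.3 and 12.3 FPKM in the libraries labelled Hira-null, against 20.6 and 19.5 FPKM in WT (−0.72, SE 0.18, adjusted p = 0.0139). That call was lost without WT day 15 replicate 1 or 2 or Hira-null day 15 replicate 1 (0.00301 to 0.144 over 19 alternatives). Ppp1r9a, which encodes an actin-binding protein of neurons, was lower by 0.55 at day 0 (adjusted p = 0.0432), a call lost in 10 of 19 alternatives, the highest adjusted p of 0.278 being without Hira-null day 0 replicate 1. Asb4 read at most 0.414 FPKM at day 0 and 3.17 to 4.81 FPKM at day 15 and passed neither test.

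In the Peg3 domain at the proximal end of chromosome 7, Zim1 and Peg3 lie side by side and encode zinc finger proteins. Zim1, of the maternal copy (6628154 to 6649161, minus strand), read 0.0832 and 0.0975 FPKM in Hira-null at day 0, against 0.116 and 0.135 FPKM in WT, values that rest on 2 to 4 fragments each. At day 15 Zim1 read 12.7 and 10.3 FPKM in the libraries labelled Hira-null, against 36.7 and 38.8 FPKM in WT. This was 3.29-fold lower in means (−1.64, SE 0.15, adjusted p = 1.12e-04), and the groups stood well apart. Peg3, of the paternal copy, differed at day 0 instead, with 5.85 and 7.20 FPKM in Hira-null, against 11.9 and 11.7 FPKM in WT (−0.77, SE 0.09, adjusted p = 3.23e-04). At day 15 Peg3 read 274 and 286 FPKM in the libraries labelled Hira-null, against 323 and 310.1 FPKM in WT (adjusted p = 0.172). Usp29, which lies next to Peg3 on the other strand, passed neither test, at 4.85 and 5.63 FPKM in the day 15 libraries labelled Hira-null, against 3.09 and 3.37 FPKM in WT.

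The domain named for Snrpn, whose human counterpart is lost in Prader-Willi syndrome, had 1 of 3 tested members called at day 0 and 2 of 3 at day 15, all higher. Snrpn itself was at or below 0.802 FPKM. Ndn, which encodes necdin, read 10.5 to 16.7 FPKM at day 0 and 66.7 to 76.9 FPKM at day 15 and overlapped between genotypes at both days. Magel2 was higher at day 15, at 11.8 and 12.3 FPKM in the libraries labelled Hira-null, against 6.85 and 6.99 FPKM in WT (0.72, SE 0.19, adjusted p = 0.0173). This call was lost without WT day 15 replicate 1 or 2, without Hira-null day 15 replicate 2 and at a pseudocount of 0.1 (0.00155 to 0.137 over 19 alternatives). Mkrn3 was higher by 0.63 at day 0 and 0.64 at day 15, calls near the threshold (adjusted p = 0.0401 and 0.0438) that were lost in 13 and 10 of 19 alternatives, with the highest adjusted p of 0.221 without Hira-null day 0 replicate 1 and of 0.274 without WT day 15 replicate 1.

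Igf2r, which clears IGF2 from the cell surface and is used from the maternal copy, read 41.8 and 47.1 FPKM in Hira-null at day 0, against 32.8 and 33.9 FPKM in WT (0.40, SE 0.07, adjusted p = 0.00305). At day 15 Igf2r read 152 and 151 FPKM in the libraries labelled Hira-null, against 146 and 140.2 FPKM in WT (adjusted p = 0.448). Airn, the paternally expressed noncoding RNA that silences Igf2r in cis, was listed at 0 in both Hira-null libraries at day 0, where 3 fragments would read up to 0.2 FPKM, and at 0.0621 and 0.162 FPKM in WT, so no fold is given. At day 15 Airn read 1.74 and 1.82 FPKM in the libraries labelled Hira-null, against 3.93 and 3.78 FPKM in WT (−0.80, SE 0.16, adjusted p = 0.00427), a call lost at a pseudocount of 0.1 only (0.00108 to 0.0689 over 19 alternatives). The Airn values rest on a length of 2188 bases, in a gene that runs from 12934177 to 13052988 on mm9, and come from poly(A) RNA.

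Grb10 encodes an adaptor that dampens insulin and IGF receptor signalling and is used from the maternal copy in most tissues but from the paternal copy in neurons (chromosome 11, 11830511 to 11938686, minus strand). It was the member with the highest log2 difference at day 0. It read 85.1 and 83.3 FPKM in Hira-null, against 29.5 and 31.4 FPKM in WT, 2.76-fold higher in means (1.44, SE 0.08, adjusted p = 9.35e-06). At day 15 Grb10 read 94.6 and 89.9 FPKM in the libraries labelled Hira-null, against 21.2 and 19.4 FPKM in WT, 4.55-fold higher (2.13, SE 0.08, adjusted p = 2.62e-06). The groups stood apart at both days, the more so at day 15 (difference 0.69, SE 0.11, adjusted p = 0.00194). Gnas, which encodes the stimulatory G protein subunit and several imprinted transcripts summed here, differed little, with 132 and 137 FPKM in the day 15 libraries labelled Hira-null, against 112 and 111 FPKM in WT (0.27, adjusted p = 0.0116, and 0.0107 to 0.075 over 19 alternatives, lost without either WT day 15 library among others).

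The paternally expressed single genes Plagl1, Mest and Nnat, whose promoters are printed above, were lower at both days. Plagl1 encodes a zinc finger factor that in the mouse acts on other imprinted genes (chromosome 10, 12810497 to 12851500, plus strand). It read 0.111 and 0.216 FPKM in Hira-null at day 0, from 4 and 10 fragments, against 1.73 and 1.91 FPKM in WT (−1.28, SE 0.12, adjusted p = 1.27e-04). At day 15 Plagl1 read 6.59 and 6.05 FPKM in the libraries labelled Hira-null, against 110 and 114 FPKM in WT, 17.7-fold lower in means (−3.95, SE 0.13, adjusted p = 2.30e-06). All its groups stood apart. The fitted difference between the days was −2.67 (SE 0.18, adjusted p = 7.74e-05), but its size rests on the pseudocount, being −1.23 at a pseudocount of 0.1 (adjusted p = 0.0191). In means Plagl1 was 11.1-fold lower at day 0.

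Mest, a hydrolase-like gene of embryonic mesoderm (chromosome 6, 30673547 to 30698457, plus strand), read 31.1 and 28.3 FPKM in Hira-null at day 0, against 59.6 and 62.1 FPKM in WT (−1.01, SE 0.09, adjusted p = 6.80e-05). At day 15 Mest read 128 and 109 FPKM in the libraries labelled Hira-null, against 318 and 317 FPKM in WT (−1.42, SE 0.09, adjusted p = 2.79e-05). Copg2 shares exons with it on the other strand. At day 0 Copg2 read 26.3 and 28.1 FPKM in Hira-null, close to Mest there, against 23.4 and 20.9 FPKM in WT. At day 15 Copg2 read 20.9 and 15.3 FPKM in the libraries labelled Hira-null, against 17.4 and 16.3 FPKM in WT, far below Mest. Whether the counting separated strands is not given, and the part of Copg2 in the day 0 values of Mest was not tested.

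Nnat encodes neuronatin, a small membrane protein of neurons and other secretory cells (chromosome 2, 157385814 to 157388258, plus strand). It read 1.96 and 2.21 FPKM in Hira-null at day 0, against 12.8 and 11.8 FPKM in WT, 5.89-fold lower in means (−2.11, SE 0.10, adjusted p = 4.55e-06). At day 15 Nnat read 51.2 and 57.8 FPKM in the libraries labelled Hira-null, against 146 and 138 FPKM in WT (−1.37, SE 0.10, adjusted p = 5.08e-05), while 8 of 10 neural markers were higher there. The difference between the days was 0.74 (SE 0.14, adjusted p = 0.00453) but −0.02 at a pseudocount of 5 (adjusted p = 0.895, with 0.00147 to 0.895 over 18 alternatives), so its direction rests on the scale.

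Impact, named for its imprinting and a regulator of translation, was also lower at both days, at 26.7 and 27.2 FPKM in Hira-null at day 0, against 53.7 and 53.1 FPKM in WT (−0.96, SE 0.08, adjusted p = 5.44e-05). At day 15 Impact read 52.3 and 48.2 FPKM in the libraries labelled Hira-null, against 65.5 and 72.1 FPKM in WT (−0.45, SE 0.08, adjusted p = 0.00275). Its gap was thus narrower in the later cultures.

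Zdbf2, a gene on chromosome 1 (63319839 to 63361150, plus strand) that in the mouse brain affects growth, was the one member called in opposite directions. It read 4.22 and 4.33 FPKM in Hira-null at day 0, against 7.43 and 9.34 FPKM in WT (−0.82, SE 0.14, adjusted p = 0.00169). At day 15 Zdbf2 read 30.9 and 27.4 FPKM in the libraries labelled Hira-null, against 18.0 and 21.7 FPKM in WT (0.54, SE 0.14, adjusted p = 0.0163). The day 15 call was lost without WT day 15 replicate 1 or 2 or Hira-null day 15 replicate 1 (0.0114 to 0.177 over 19 alternatives). The difference between the days, 1.36 (SE 0.19, adjusted p = 0.00137), was called in all 18 alternatives.

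Sfmbt2, a Polycomb-related gene used from the paternal copy in the trophoblast and early embryo (chromosome 2, 10292137 to 10516880, plus strand), differed at day 0. It read 6.82 and 6.64 FPKM in Hira-null, against 17.7 and 19.5 FPKM in WT (−1.34, SE 0.12, adjusted p = 7.13e-05). At day 15 the libraries labelled Hira-null held 4.53 and 4.76 FPKM, against 4.47 and 4.76 FPKM in WT, and the groups overlapped (adjusted p = 0.969). Dcn, which encodes the matrix protein decorin of fibroblasts (chromosome 10, 96942245 to 96980777, plus strand), could be compared at day 15 only. It was listed at 0 in both Hira-null libraries at day 0, where 3 fragments would read up to 0.21 FPKM, and at 0 and 0.17 FPKM in WT. At day 15 Dcn read 18.3 and 13.4 FPKM in the libraries labelled Hira-null, against 42.4 and 44.1 FPKM in WT (−1.41, SE 0.17, adjusted p = 4.46e-04), beside the 8 of 10 mesenchyme markers that were lower. The fitted difference of Dcn between the days (−1.30, SE 0.24, adjusted p = 0.00435) was lost at a pseudocount of 0.1 (adjusted p = 0.385).

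The other single genes moved little. Slc38a4, an amino acid transporter, was lower at day 15 only, by 0.28 on the log2 scale (adjusted p = 0.0146, and 0.01 to 0.113 over 19 alternatives, lost without either WT day 15 library and with 2 other settings). Zrsr1, a splicing factor gene that lies within Commd1 on the other strand, passed neither test, at 7.32 and 8.54 FPKM in Hira-null at day 0, against 9.92 and 10.04 FPKM in WT. Rasgrf1 was at or below 0.12 FPKM in every library, and Rtl1 reached 0.0858 and 0.421 FPKM in the day 15 libraries labelled Hira-null, against 0.75 and 0.717 FPKM in WT.

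Whether the genotype difference itself changed between the days was tested for each member. It was higher at day 15 for 11 members and lower for 11, and 13 did not pass (17.5% and 17.7% of all genes). Of the members of the maternal copy 2 were higher and 7 lower, and of those of the paternal copy 8 were higher and 4 lower. The 5 with a rise of 1 or more were Cdkn1c, Igf2, Zdbf2, Sfmbt2 and Peg10, and the 5 with a fall of 1 or more were Plagl1, Dlk1, Zim1, Dcn and Slc22a18. Zim1, Dcn and Slc22a18 were near or under 3 fragments at one of the days, so their values restate the difference at the other day. Among the 28 members at FPKM 1 or more at both days, 11 were higher and 7 lower. Without WT day 15 replicate 1 or replicate 2 fewer members were called lower, and fewer of all genes too.

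Levels after differentiation were compared with those before it within each genotype. In the libraries labelled Hira-null 28 members were higher at day 15, 5 lower and 2 did not pass (37.5% and 36.4% of all genes), and in WT 28 were higher, 6 lower and 1 did not pass (36.1% and 33.4% of all genes). Kcnq1ot1, Asb4, Zim1, Airn and Dcn passed the filter through day 15 only, and Slc22a18 and Ascl2 through day 0 only, which fixed their direction. Of the other 28 members, 23 were higher and 3 lower at day 15 in the libraries labelled Hira-null (34% and 38% of the 12321 genes at FPKM 1 or more at both days), and 23 were higher and 4 lower in WT (32.2% and 35.9%). Their medians were 1.80 in the libraries labelled Hira-null and 1.48 in WT, against −0.06 and −0.04 over those genes. These comparisons share their libraries with the genotype comparisons. Over all 35 tested the median day 15 minus day 0 difference was 1.81 in the libraries labelled Hira-null, or 1.90 with Airn, Dcn and Slc22a18 at their bounds, and 1.53 in WT, against 0.01 and 0.03 over all genes. Centring the libraries on their medians moved the median of all genes by −0.20 in the libraries labelled Hira-null and by −0.24 in WT and turned the direction of no called member.

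Igf2 rose by 5.50 (SE 0.11, adjusted p = 5.03e-09) in the libraries labelled Hira-null and by 3.74 (SE 0.11, adjusted p = 3.64e-08) in WT. Peg3 rose by 5.23 in the libraries labelled Hira-null and by 4.63 in WT, and Nnat by 4.17 and 3.43. Plagl1 rose by 2.65 in the libraries labelled Hira-null and by 5.32 in WT, but the first value was 4.64 at a pseudocount of 0.1 and 1.13 at 5. In means Plagl1 was 38.7-fold higher in the libraries labelled Hira-null and 61.5-fold higher in WT. Against the 3-fragment floor of the 2 day 0 Hira-null libraries, where both genes were listed at 0, Airn was at least 8.94-fold higher and Dcn at least 75.4-fold higher at day 15, and Slc22a18, listed at 0 at day 15, was at least 27.4-fold lower. Airn, Dcn and Slc22a18 each passed the filter through a single day, which fixed these directions.

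A few members were called with day in one genotype or in opposite directions. Cdkn1c rose by 1.90 (SE 0.15, adjusted p = 4.83e-06) in the libraries labelled Hira-null and did not pass in WT (−0.18, adjusted p = 0.321). Grb10 fell by 0.56 in WT (adjusted p = 1.69e-04) and did not pass in the libraries labelled Hira-null (0.13, adjusted p = 0.152). Peg10 rose by 0.87 in the libraries labelled Hira-null (adjusted p = 2.53e-06) and fell by 0.42 in WT (adjusted p = 2.94e-04), where quantile normalization gave 0.31. The tests of these differences are the ones given for each gene above. The trophoblast-related genes Phlda2 and Ascl2 fell in both genotypes, with log2 changes of −3.72 and −3.49 in the libraries labelled Hira-null and of −4.15 and −3.44 in WT. Ascl2 passed the filter through day 0 only, which fixed its direction.

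**Figure D4:**
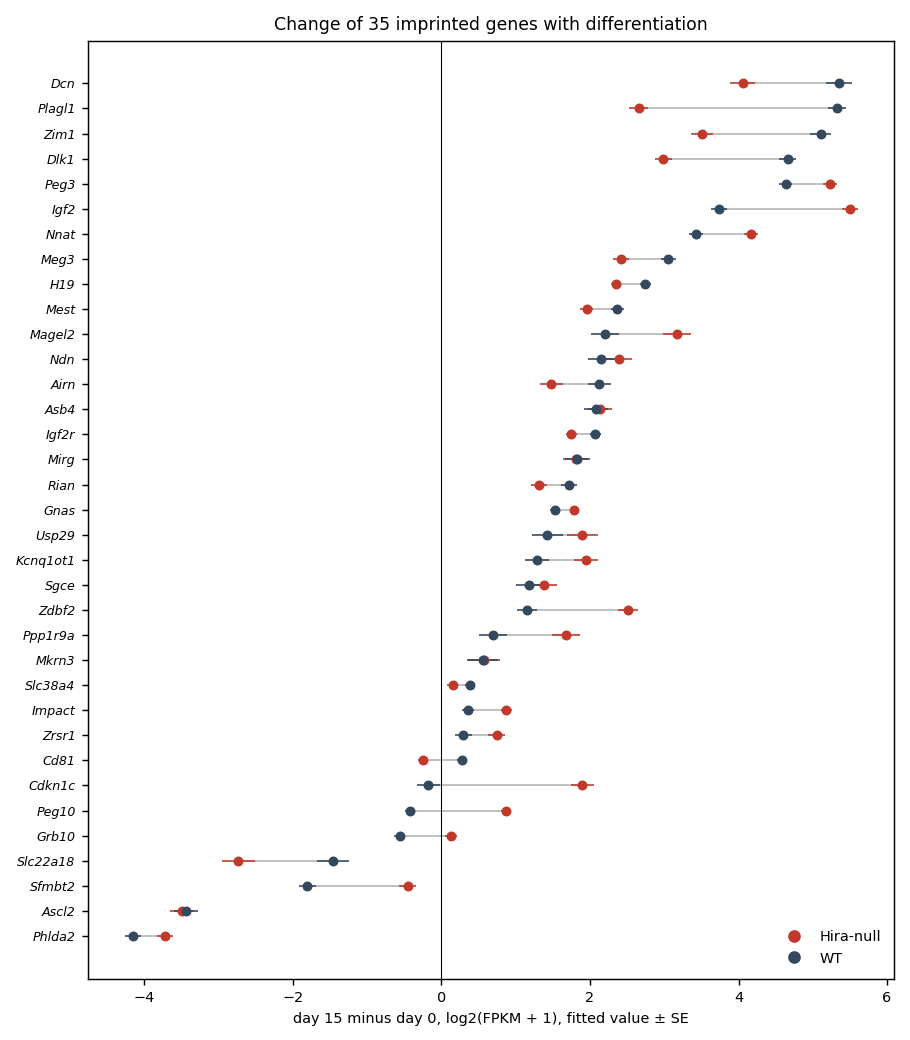
Day 15 minus day 0 on the log2(FPKM + 1) scale (horizontal axis, fitted value with standard error) for the 35 members tested, in Hira-null (red) and WT (dark blue), ordered by the WT value. The 2 genotypes lie far apart for Cdkn1c (1.90 and −0.18), the gap for Plagl1 (2.65 and 5.32) rests largely on the pseudocount, and 28 members were called higher at day 15 in each, 5 of which passed the filter through day 15 only.

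Other imprinted genes were compared in the same fit. Of 41 listed, 40 were in the table and 29 were tested, with 7 higher and 7 lower in Hira-null at day 0 and 5 higher and 4 lower in the libraries labelled Hira-null at day 15. Over all genes 20.8% were higher and 19.4% lower at day 0, and 18.6% and 18.8% at day 15, so these counts lie near the share of all genes. Commd1, the host of Zrsr1, read 63.5 and 67.5 FPKM in Hira-null at day 0, against 107 and 102 FPKM in WT (−0.66, adjusted p = 0.00378). At day 15 Commd1 read 25.4 and 18.5 FPKM in the libraries labelled Hira-null, against 52.6 and 59.4 FPKM in WT (−1.33, adjusted p = 1.71e-04). Ddc, the neighbour of Grb10 that makes dopamine and serotonin, was lower by 1.05 at day 0 and by 1.15 at day 15 on the log2 scale, while Grb10 was higher. Pon2, a neighbour of Peg10, was lower at day 0 (−1.06, adjusted p = 5.71e-04) and higher at day 15 (0.67, adjusted p = 0.00714).

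The Dlk1-Meg3 domain differed again at its edges. Dio3, which inactivates thyroid hormone, read 10.8 and 9.69 FPKM in Hira-null at day 0, against 3.64 and 2.09 FPKM in WT (1.57, SE 0.21, adjusted p = 6.79e-04), although Dlk1 and Meg3 overlapped there. Begain was higher at day 0 by 0.60 (adjusted p = 0.022) and lower at day 15 by 0.85 on the log2 scale (adjusted p = 0.00593).

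Factors that set or keep imprints were compared next. All 20 were tested, with 2 higher and 8 lower in Hira-null at day 0 and 5 higher and 3 lower in the libraries labelled Hira-null at day 15 (all genes: 20.8% and 19.4% at day 0, 18.6% and 18.8% at day 15). Zfp57 read 37.0 and 36.2 FPKM in Hira-null at day 0, against 56.0 and 54.5 FPKM in WT (−0.58, SE 0.08, adjusted p = 6.25e-04). At day 15 Zfp57 read 27.5 and 26.2 FPKM in the libraries labelled Hira-null, against 36.0 and 32.4 FPKM in WT (−0.34, SE 0.08, adjusted p = 0.0113). Dppa3, which shields methylation in the fertilised egg, was lower at both days (−1.85, adjusted p = 0.00103, and −2.91, adjusted p = 1.56e-04). Uhrf1 ran the other way at day 0, at 184 and 178 FPKM in Hira-null, against 128 and 120 FPKM in WT. At day 15 Uhrf1 read 38.9 and 43.8 FPKM in the libraries labelled Hira-null, against 57.9 and 53.7 FPKM in WT. Dnmt1 at day 0 read 93.7 and 91.1 FPKM in Hira-null, against 86.6 and 86.2 FPKM in WT. Trim28 at day 0 read 568 and 565 FPKM in Hira-null, against 677 and 635 FPKM in WT. Dnmt3l, a cofactor for new methylation in germ cells, overlapped between genotypes at day 0. It read 235 and 238 FPKM in Hira-null then, against 241 and 224 FPKM in WT. By day 15 Dnmt3l fell to 26.5 and 25.5 FPKM in the libraries labelled Hira-null, and to 7.87 and 7.32 FPKM in WT (1.65, SE 0.07, adjusted p = 7.58e-06).

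The proteins that IGF2 and its imprinted partners act through were compared as 15 growth partners, 14 of them tested. There were 4 higher and 2 lower in Hira-null at day 0, and 6 higher and 7 lower in the libraries labelled Hira-null at day 15, beside the same shares of all genes. Igfbp2, which binds IGF2 outside the cell, read 598 and 572 FPKM in Hira-null at day 0, against 345 and 309.9 FPKM in WT (0.84, SE 0.09, adjusted p = 2.25e-04). At day 15 Igfbp2 read 460.4 and 556 FPKM in the libraries labelled Hira-null, against 127 and 125 FPKM in WT (1.997, SE 0.09, adjusted p = 7.68e-06). Igfbp4, another such binder, read 54.9 and 57.3 FPKM in the day 15 libraries labelled Hira-null, against 169 and 162 FPKM in WT (−1.55, SE 0.11, adjusted p = 5.39e-05), and did not pass at day 0. Igf2bp1, which binds Igf2 messenger RNA, was lower by 1.002 at day 0 (adjusted p = 2.47e-05) and by 0.82 at day 15 (adjusted p = 7.56e-05) on the log2 scale.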

How the data were processed

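Messenger RNA of 8 libraries, 2 per group, was measured. The authors made libraries with the KAPA stranded mRNA kit, sequenced paired ends, aligned to mm9 with Bowtie (0.12.2) and deposited FPKM per gene. Tables of the authors' own DESeq2 (1.6.3) comparisons, holding fold changes and p-values, were not used. Fragments were recovered from the FPKM steps (100% of positive values whole within 0.1 fragment, replicate pairs at a chi-square over its degrees of freedom of 2.89 to 5.93) and cover counting error only.

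log2(FPKM + 1) of 14337 genes was fitted with limma 3.58.1 (R 4.3.3) as 4 groups on the 8 libraries together, weighted by day (1.03 and 0.968), an eBayes trend and Benjamini-Hochberg adjustment at 0.05, checked on simulated data. Errors are standard errors of the fit with 4 residual and 4.70 prior degrees of freedom. Alternatives changed the pseudocount, filter, scaling, weights, trend, libraries fitted and replicate block.

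Members and lists were chosen with earlier results of these data known. Values in every library are given for members called at 2-fold or more in a genotype comparison, or with a called difference between days of 1 or more. Other listed genes named are among the largest called, apart from Dnmt1 and Trim28, named in the opening, and Copg2, which overlaps Mest. Positions are GENCODE NCBIM37 (mm9), found for 37 members (not Kcnq1ot1), and exons overlap another gene for 9 members across strands and for 4 within the strand. The table writes 27 symbols as dates.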

Additional observations from a re-analysis of the deposited data

Results flagged for a closer look

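The genotype difference at day 15 minus that at day 0 is the test of whether the libraries labelled Hira-null and WT differed by another amount at each day. The genes given here passed it at an adjusted p of 0.05 or less in limma, with 2 libraries a group. Values are log2 differences, and none is explained here.

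Among the members it was positive for Igf2 (1.76), Cdkn1c (2.08), Zdbf2 (1.36), Sfmbt2 (1.35), Peg10 (1.29), Ppp1r9a (0.98), Magel2 (0.98), Nnat (0.74), Grb10 (0.69), Peg3 (0.60) and Impact (0.52). It was negative for Plagl1 (−2.67), Dlk1 (−1.67), Zim1 (−1.59), Dcn (−1.30), Slc22a18 (−1.27), Airn (−0.65), Meg3 (−0.64), Cd81 (−0.52), Mest (−0.41), H19 (−0.39) and Igf2r (−0.32). Zim1, Dcn, Airn and Slc22a18 were near or under 3 fragments at one of the days. Airn and Igf2r each lost the call in 13 of 18 alternatives, Mest in 8, and H19, Ppp1r9a and Magel2 in 5 each, single libraries of day 0 or day 15 among them. Meg3 lost it without WT day 15 replicate 1 (adjusted p = 0.0504) and replicate 2 (0.0593).

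Among the other imprinted genes the values were −1.93 for Dio3, 1.73 for Pon2, −1.44 for Begain, −0.98 for Klf14 and 0.95 for Tssc4. Among the factors that set or keep imprints they were 1.63 for Dnmt3l, −0.96 for Uhrf1, 0.72 for Tet1, 0.55 for Ctcf and 0.53 for Tet2. Among the growth partners they were −1.70 for Igfbp4, 1.36 for Cdkn2a, 1.16 for Igfbp2, −1.14 for Igf2bp3 and −1.02 for Igf1. Hira itself gave 1.37 (adjusted p = 4.44e-04).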

How the results depend on the processing

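Of the calls on members, 13 of 20 at day 0, 13 of 23 at day 15, 31 of 33 with day in Hira-null, 27 of 34 with day in WT and 10 of 22 differences between the days were kept under all alternatives tried. With only the 4 libraries compared, 5 members were higher at day 0. Leaving out 1 library gave 6 to 8 members higher and 10 to 12 lower in Hira-null at day 0, 4 to 10 higher and 10 to 15 lower in the libraries labelled Hira-null at day 15, and 9 to 11 positive and 5 to 9 negative differences between the days. It also gave 27 to 28 members higher with day in the libraries labelled Hira-null and 25 to 28 in WT. Over all genes it gave 1869 to 2865 higher at day 0 and 1261 to 2670 at day 15. Without the 7 members at FPKM 1 or more at one day only, a setting chosen after seeing the data, 3 members were lower with day in the libraries labelled Hira-null and 7 differences between the days were negative, and the other 8 counts stayed within 1.5 times. Directions reversed for Cd81 with day in Hira-null (0.44) and Peg10 with day in WT (0.31) under quantile normalization, and for the Nnat difference between the days at a pseudocount of 5 (−0.0215). The cause was not tested. Hira at day 15 passed without Hira-null day 15 replicate 1 (0.32), and ranged from 0.086 to 0.32 over the libraries left out. With 2 libraries a group, residual degrees of freedom were 4, and genes near 3 fragments have no fold.

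Replicate numbers are shared across groups, but same-numbered libraries did not deviate together (correlation 0.0329 at day 0 and −0.0967 at day 15). With the replicate block within each day 7 members were higher and 12 lower at day 0, and 7 higher and 13 lower at day 15. With the block over both days these counts were 8 and 12 at day 0 and 8 and 14 at day 15.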
